A study of Mus musculus with 34 samples.

Results

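MOSJ-Dkk1 cultures under nutritional stress were treated with DkkMo or with its mismatched control scrMo, and the RNA of the 2 groups is compared here. The groups were chosen by their labels and not by a measured value. They hold 3 libraries each, which is 6 of the 34 samples of the series and 6 of its 18 cultures. MOSJ-Dkk1 is a mouse osteochondral sarcoma line in which a pLenti insert with the CMV promoter drives constitutive human Dkk-1, and it is labelled with red fluorescent protein. All cultures described here, untreated ones included, are this 1 line and carry that insert. DkkMo is a vivo morpholino, an antisense oligomer that enters cells through an attached delivery group, directed at the start of the Dkk-1 message. Cells were seeded at 500 per cm2 in flasks of 175 cm2, and 5 µM of either morpholino was added 24 h later. Under nutritional stress they stood confluent for 48 h, with no fresh medium for 4 days, and were harvested after a week of treatment. The sources do not give the same dose and length of treatment throughout, and those of the labels are used here. Cultures without morpholino (NT, labelled vehicle) under the same stress, and proliferating log phase cultures of the same 3 treatments, serve as reference, with 3 libraries a group. The labels do not say that the 3 libraries of a group came from separate flasks, so p values here measure the spread between libraries, which may be technical.

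Dkk-1 is a secreted antagonist of canonical Wnt signalling that binds the LRP5 and LRP6 co-receptors, and in bone it restrains the differentiation of osteoblasts. The mitochondrial genome is a small circle transcribed from both strands into long precursors, from which the tRNAs are cut so that the rRNAs and mRNAs between them are released. Heat shock chaperones keep proteins folded, and many of their genes are switched on together by the transcription factor HSF1. Both gene groups stand out below.

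The differences with the largest size lay in transcripts of the mitochondrial genome, and the sequences of those that turned out at the extremes are shown first, 5′ to 3′, as given for GRCm38 by GENCODE M21. The genes mt-Tt, for threonine tRNA (chrM:15289-15355, plus strand), and mt-Tp, for proline tRNA (chrM:15356-15422, minus strand), lie end to end on opposite strands. The gene mt-Tq, for glutamine tRNA (chrM:3772-3842, minus strand), is shown as a further tRNA that was lower with DkkMo. The gene mt-Ts1, for a serine tRNA (chrM:6870-6938, minus strand), is 1 of the pair that was higher with DkkMo, and its last 3 bases, in capitals, lie over the last 3 bases of mt-Co1 on the other strand. The end of mt-Co1 (chrM:6843-6872, plus strand) is given with the same 3 positions in capitals, and the first 60 bases of the rRNAs mt-Rnr1 (chrM:70-129) and mt-Rnr2 (chrM:1094-1153) follow.
mt-Tt: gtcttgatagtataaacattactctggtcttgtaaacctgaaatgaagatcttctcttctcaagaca
mt-Tp: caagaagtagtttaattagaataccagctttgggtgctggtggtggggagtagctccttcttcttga
mt-Tq: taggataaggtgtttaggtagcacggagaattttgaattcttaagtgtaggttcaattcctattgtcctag
mt-Ts1: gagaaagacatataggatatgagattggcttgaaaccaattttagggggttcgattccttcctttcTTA
mt-Co1, last bases: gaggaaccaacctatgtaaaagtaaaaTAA
mt-Rnr1, first bases: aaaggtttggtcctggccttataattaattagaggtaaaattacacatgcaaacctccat
mt-Rnr2, first bases: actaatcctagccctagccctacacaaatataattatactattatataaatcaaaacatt

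The deposited values are counts divided by a size factor per library and then transformed to a variance-stabilised log2 scale, and reversing this gave whole reads. In the 6 libraries 25875666 to 35526959 reads lay on the listed genes. Normalized counts below are those reads divided by the size factor, and a log2 fold change is the DkkMo mean minus the scrMo mean on the deposited scale, unless stated, with the SE of the fit. On this scale low counts give smaller differences than their ratio. Rank correlations over genes, a description of these libraries, were 0.9968 to 0.9970 within DkkMo, 0.9965 to 0.9975 within scrMo, where the lower values were those of scrMo 1, and 0.9916 to 0.9926 between the groups. The titles of NT 2 and NT 3 carry the same number. Their rank correlation was 0.9969, beside 0.9967 and 0.9974 for the other NT pairs, and they were counted as 2 libraries, as listed. No sequencing batch is given in the labels.

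Of 16562 genes, 3464 passed the test (limma, Benjamini-Hochberg adjusted p below 0.05 over all genes), of which 1652, or 9.97%, were higher with DkkMo and 1812, or 10.9%, were lower. With each library centred on its median the split was 2308 higher and 1333 lower, and in a model of the 6 libraries alone it was 2712 and 2936. Those that also differed by over 1.5-fold are called DE. There were 166 of them, 85 higher with DkkMo than with scrMo (0.513% of all genes) and 81 lower (0.489%). Against NT, 69 of the 166 were DE with scrMo alone, 33 with DkkMo alone, 16 with both and 48 with neither. Over all genes 734 were DE with scrMo against NT and 441 with DkkMo against NT, comparisons that share the NT libraries. In 44.9% of all genes the 3 DkkMo libraries did not overlap the 3 scrMo libraries, and in all 166 DE genes they did not. The median log2 fold change over all genes was 0.0016. Past 2-fold there were 29 DE genes, 5 higher and 24 lower, and 17 of the 24 were mitochondrial. In the plot of change against level, most mitochondrial genes sit toward the bottom, while mt-Ts1 and mt-Co1 lie near the top. Most heat shock chaperones lie on the positive side.

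**Figure D1:**
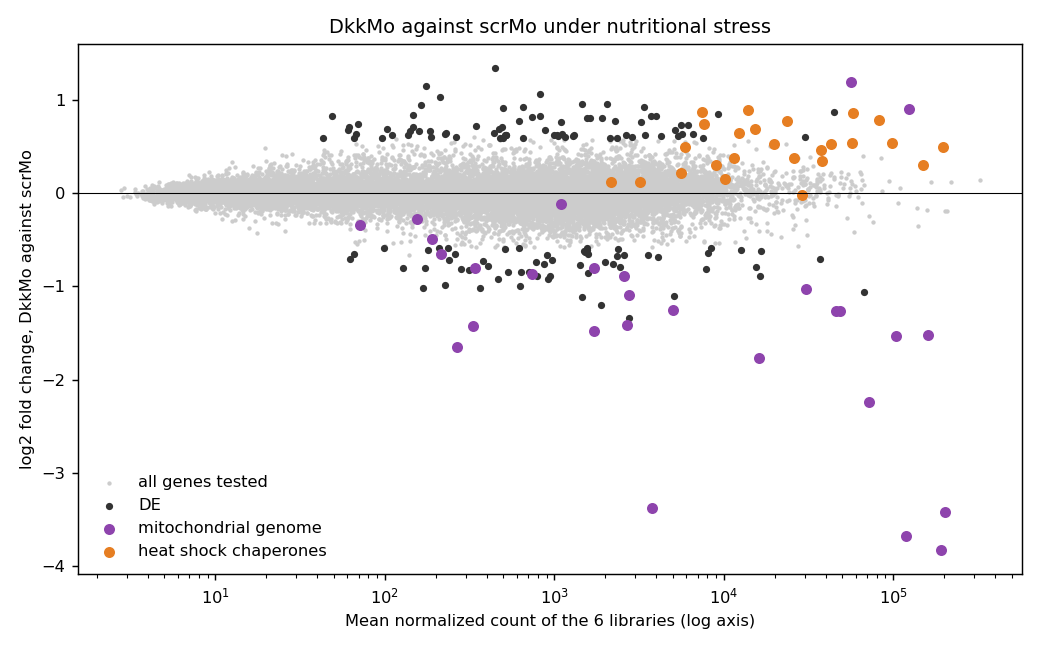
Each point is a gene. The horizontal axis gives its mean normalized count over the 6 libraries on a log axis, the vertical axis its log2 fold change, DkkMo against scrMo. The 24 DE genes of the mitochondrial genome reach from -3.82 to 1.20, and 24 of the 25 heat shock chaperone genes lie above 0.

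The largest differences between the groups were those of RNA from the mitochondrial genome. It made up 1.74, 1.88 and 1.74% of the reads in the 3 DkkMo libraries and 5.80, 5.55 and 5.30% in the 3 scrMo libraries. In the NT libraries it was 1.60, 1.67 and 1.54%, so that DkkMo lay just above NT and scrMo far above both. DkkMo and scrMo did not overlap, and the exact permutation test of 3 against 3 libraries gave 0.1, two-sided, the smallest p it can give. The 2 rRNAs alone took 0.161 ± 0.0134% of reads with DkkMo, 1.81 ± 0.150% with scrMo and 0.0748 ± 0.00465% with NT (SD, n = 3 each). The tRNA gene mt-Tp took 0.0778 ± 0.00526%, 1.09 ± 0.0636% and 0.0560 ± 0.00331% in the same order. For the protein-coding genes the shares lay closer together, at 1.19 ± 0.0537%, 2.08 ± 0.0351% and 1.05 ± 0.0340%. The libraries were made with oligo(dT) beads, and how far each class of RNA was captured was not tested. In bulk samples a difference in every cell and one in some of the cells cannot be told apart, nor can more mitochondrial RNA and less RNA of other genes. The total of normalized counts outside the mitochondrial genome was 31345431 to 31501301 with DkkMo, 30750705 to 31030332 with scrMo and 34822777 to 35597618 with NT. These counts are already divided by a size factor per library, so their totals cannot settle that question.

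Of the 37 genes of the mitochondrial genome 28 had values, and 24 of them fell and 2 rose with DkkMo, 22 and 2 of them DE. Of all genes 10.9% fell and 9.97% rose, and 0.489% and 0.513% were DE. The median log2 fold change of the 28 was -1.25. The 12 lowest values of all 16562 genes were mitochondrial. The other 9 genes, among them mt-Atp6, mt-Co3 and mt-Nd4, were not analysed here.

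The rRNAs form the core of the mitochondrial ribosome. Normalized counts of mt-Rnr1, the RNA of its small subunit, were 17653, 18431 and 15251 with DkkMo, 241484, 223218 and 200965 with scrMo and 10696, 11442 and 9707 with NT. Those of mt-Rnr2, the large subunit, were 34427, 37200.1 and 31705 with DkkMo, 399541, 376089 and 338838 with scrMo and 16081, 17142 and 15150.1 with NT. The lowest scrMo library lay far above the highest DkkMo library, and the scrMo means were 13.0 and 10.8 times those of DkkMo. Log2 fold changes were -3.67 ± 0.104 for mt-Rnr1 (limma, adjusted p = 8.59e-15) and -3.42 ± 0.11 for mt-Rnr2 (adjusted p = 5.95e-14).

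The libraries were made with oligo(dT) beads, and mitochondrial tRNAs lack a poly(A) tail. Counts at tRNA genes may therefore hold reads of longer precursors, which was not tested, and were not taken as levels of mature tRNA. Of the 22 mitochondrial tRNA genes 17 had values, of which 14 fell and 1 rose, beside 10.9% and 9.97% of all genes. The steepest was mt-Tp, the minus strand tRNA beside the control region, with 23407, 26843 and 24454 with DkkMo, 382750, 342855 and 343614 with scrMo and 19289, 21649 and 19138 with NT. Its mean was 14.3-fold higher with scrMo than with DkkMo, and its log2 fold change was -3.82 ± 0.093 (limma, adjusted p = 7.36e-16). Its plus strand neighbour mt-Tt had 422, 508 and 414 with DkkMo, 7335, 7154 and 6712 with scrMo and 118, 119 and 114 with NT, a log2 fold change of -3.37 ± 0.0737 (adjusted p = 2.03e-16). All 3 groups were apart for mt-Tt, with NT lowest. The order was the same for mt-Tq, with 25457, 26771 and 23236 with DkkMo, 122160, 121966 and 113800 with scrMo and 9789, 10164 and 9220.3 with NT, and -2.23 ± 0.0729 (adjusted p = 6.63e-14).

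Counts were low for mt-Tf, the phenylalanine tRNA at the start of the genome, with 49.7, 32.7 and 31.4 with DkkMo, 523, 466 and 495 with scrMo and 11.4, 3.11 and 3.79 with NT. It fell by 1.65 on the deposited scale, while the ratio of mean counts was 13.0, which shows how far the scale compresses low counts. The remaining tRNAs that fell were mt-Tm (-1.48), mt-Ty (-1.42), mt-Tv (-1.42), mt-Tl1 (-1.25), mt-Tc (-1.09), mt-Tn (-0.89), mt-Ta (-0.80), mt-Tg (-0.66), mt-Th (-0.49) and mt-Tr (-0.34). Of mt-Te and mt-Ts2, which did not pass, the values were -0.12 (adjusted p = 0.282) and -0.28 (adjusted p = 0.227). In mt-Th the libraries of the 2 groups touched, at 172, 143 and 59.4 with DkkMo and 172, 207 and 377 with scrMo.

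Of the 9 protein-coding mitochondrial genes with values, 8 fell and 1 rose, all DE, beside 0.489% and 0.513% of all genes. Among the subunits of complex I, mt-Nd6, the only protein encoded on the other strand, had 7255, 7615 and 6787 with DkkMo and 25812, 24816 and 25181 with scrMo, and NT at 6891, 7913 and 6649.5 overlapped DkkMo. The log2 fold change was -1.77 ± 0.0878 (limma, adjusted p = 7.33e-11). For mt-Nd2 the counts were 86882, 87938 and 75559 with DkkMo, 246760, 236100 and 235524 with scrMo and 23962, 25046 and 22498 with NT, with -1.52 ± 0.0775 (adjusted p = 8.86e-11), and here DkkMo itself stood 1.79 above NT (adjusted p = 2.73e-11). Further falls were those of the complex I subunits mt-Nd1 (-1.53), mt-Nd5 (-1.02) and mt-Nd3 (-0.81), of cytochrome b, mt-Cytb (-1.26), of the ATP synthase subunit mt-Atp8 (-1.26) and of the cytochrome oxidase subunit mt-Co2 (-0.86). Counts of mt-Co2, which has a nuclear copy of the same sequence, were 487, 492 and 379.6 with DkkMo and 1116, 1113 and 854 with scrMo. With NT they were 765, 352 and 732. Against NT the change was -0.27 for DkkMo (limma, adjusted p = 0.384) and 0.60 for scrMo (adjusted p = 0.0453).

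The opposite direction was seen in mt-Co1, a core subunit of cytochrome oxidase, and in mt-Ts1, which overlaps its end. Counts of mt-Co1 were 150838, 168058 and 163654 with DkkMo, 84925, 86447 and 86986 with scrMo and 249749, 262664 and 245605 with NT. Counts of mt-Ts1 were 72049.7, 81216 and 81419 with DkkMo, 33129.8, 34312 and 34321 with scrMo and 128781, 138211 and 125528 with NT. In both genes scrMo was lowest, DkkMo between and NT highest, with no overlap of any 2 groups. Against scrMo the DkkMo libraries were higher by 0.90 ± 0.0831 for mt-Co1 (limma, adjusted p = 3.55e-07) and 1.20 ± 0.0774 for mt-Ts1 (adjusted p = 3.25e-09). Whether reads were counted by strand is not stated in the sources, so reads of the end of mt-Co1 and of mt-Ts1 cannot be told apart. The same holds for mt-Nd5 and mt-Nd6, which overlap by 14 bases, and for mt-Tq and mt-Ti, which overlap by 3. It also holds for reads that span the junction of mt-Tt and mt-Tp. Other neighbours on opposite strands that all but touch are mt-Tq and mt-Tm, mt-Tw and mt-Ta, and mt-Ty and mt-Co1.

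Some nuclear pseudogenes hold near-identical copies of mitochondrial sequence, and reads of the pairs may be shared. The 6 that were matched were named after their values were seen, and 5 of them passed the test, beside 3464 of all 16562 genes. The 4 among these 5 whose original had a value had its sign. As reads may be shared, this is not a separate observation. Gm28661 and Gm10222 match mt-Co2 and mt-Nd4l over their whole length of 681 and 294 bases with no mismatch, and had log2 fold changes of -0.995 and -1.01. Gm28438, with 1 mismatch to mt-Nd3 in 345 bases, had -0.65, and Gm13339, 96.7% identical to mt-Nd2 over 510 bases, had -0.80. Gm29216, with 1 mismatch to mt-Co1 in 483 aligned bases, rose by 0.66. Gm28437, a match to mt-Co3 over 783 bases with no mismatch, had -0.47 (limma, adjusted p = 0.221) and did not pass. The originals of Gm10222 and Gm28437 were not analysed here. Counts of Gm10222 were uneven within scrMo, at 1062, 366 and 311.

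**Figure D2:**
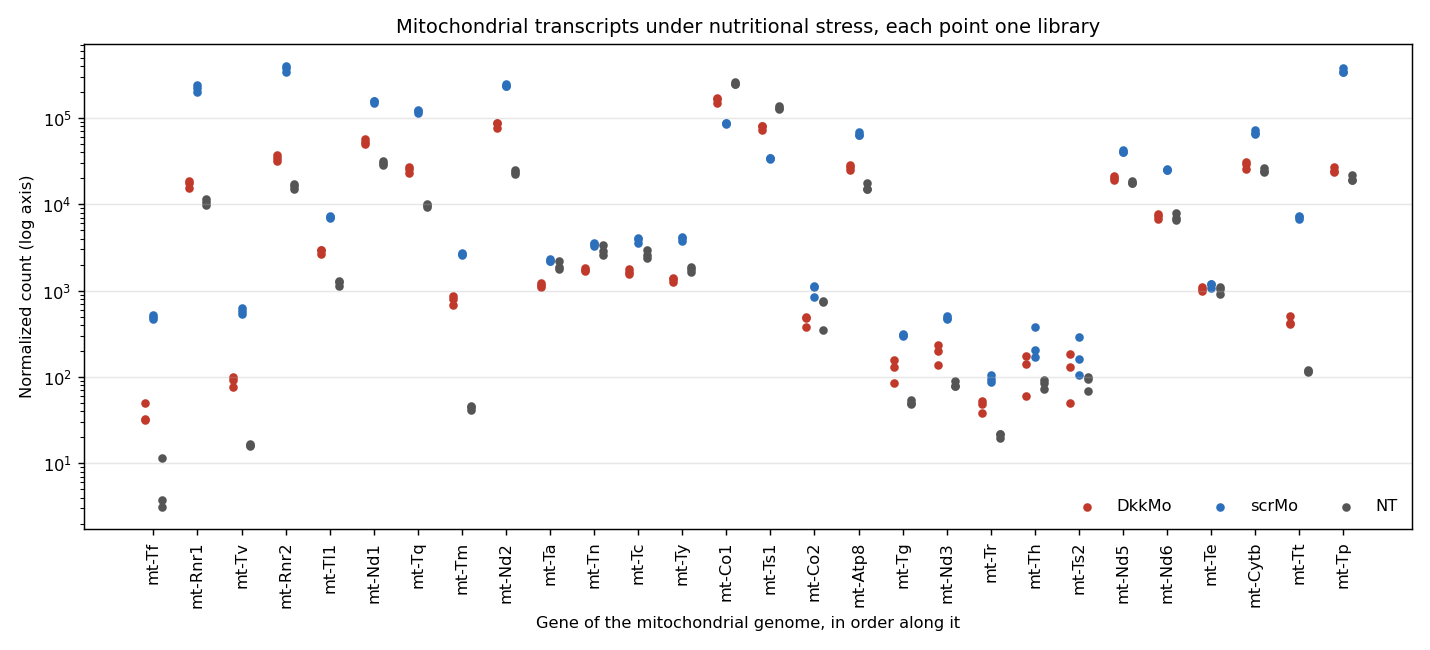
Normalized counts (log axis) of the 28 mitochondrial genes with values, in the order in which they lie along the genome, for the 3 libraries each of DkkMo, scrMo and NT under nutritional stress. The scrMo points lie above the DkkMo points in most genes, below them for mt-Co1 and mt-Ts1, and among them for mt-Te and mt-Ts2.

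Set against NT, the 2 morpholino groups share the NT libraries, and their values are given side by side. Over the 28 genes the median was 0.28 for DkkMo and 1.37 for scrMo, with 21 and 27 genes past the test, beside 41.7% and 46.8% of all genes. For mt-Tp it was 0.31 (limma, adjusted p = 0.0119) and 4.13 (adjusted p = 1.16e-16), for mt-Rnr2 1.08 and 4.50, and for mt-Nd6 0.015 (adjusted p = 0.904) and 1.78. In log phase the share of mitochondrial reads was 2.54 ± 0.126% with DkkMo and 2.40 ± 0.0614% with scrMo (SD, n = 3 each). The rRNA share there was 0.129 ± 0.00456% with DkkMo and 0.314 ± 0.0663% with scrMo, again with no overlap and scrMo higher, at far lower levels than with scrMo under nutritional stress. Of the 28 genes, 25 passed the test of the difference between the conditions (interaction), 23 of them more negative under nutritional stress, beside 22.2% of all genes that passed it in either direction.

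Nuclear genes for the mitochondrion are read beside the 9.97% of all genes that rose and the 10.9% that fell. Calls lay below these shares for the respiratory chain and near them for the mitochondrial ribosome and expression of mitochondrial DNA. Of 69 nuclear respiratory chain subunits with values, 1 rose and 3 fell, with a median of 0.022, the ones with the smallest p being Atp5h (-0.46) and Ndufb2 (-0.25). Of 47 genes for the mitochondrial ribosome and for expression of mitochondrial DNA, 5 rose and 4 fell, with a median of -0.013. Among them Tfb2m (0.28), a transcription factor of the organelle, rose and Supv3l1 (-0.30), a helicase for the decay of its RNA, fell. Outside that list, Malsu1, an assembly factor of the large mitochondrial ribosomal subunit, had 41695, 44795 and 44446 with DkkMo, 89582, 91479 and 92248 with scrMo and 81304, 79206 and 79766 with NT. It fell by 1.06 (limma, adjusted p = 4.28e-10), and here DkkMo stood apart and scrMo was near NT.

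Heat shock chaperone genes were higher with DkkMo than with scrMo as a group. Of the 25 with values 21 passed the test, all upwards, beside 9.97% of all genes that rose. DE were 8 of them, beside 0.513% of all genes that were DE and higher. The median log2 fold change was 0.50, beside 0.0016 over all genes. Relative to NT the median was -0.24 for DkkMo and -0.69 for scrMo, which share the NT libraries. Of the 8 DE genes Hspa1b was higher in each DkkMo library than in NT.

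Bag3, a co-chaperone of HSP70, had 16562, 18316 and 19638 with DkkMo, 11732, 8661 and 8849.9 with scrMo and 20822, 25614 and 23424 with NT, and rose by 0.89 ± 0.101 (limma, adjusted p = 4.82e-06). Cryab, a small heat shock protein, had 9561, 9834 and 9593 with DkkMo, 6477, 4544 and 4633 with scrMo and 8518, 12296 and 9809 with NT, and rose by 0.87 ± 0.119 (adjusted p = 3.68e-05). Hspa1b, an inducible HSP70, had 70226, 66800.2 and 85218 with DkkMo, 53751, 36148 and 34516 with scrMo and 45654, 62162 and 55595 with NT, and rose by 0.85 ± 0.237 (adjusted p = 0.0146). In each of these genes scrMo 1 was the scrMo library nearest to DkkMo. Reads of Hspa1b and of its near-identical neighbour Hspa1a, which was not analysed here, may be shared.

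Hsph1, an HSP110 nucleotide exchange factor, had 94499, 112262 and 106054 with DkkMo, 76651, 52964 and 53471 with scrMo and 114887, 141302 and 126116 with NT, a rise of 0.79 ± 0.138 (limma, adjusted p = 0.000403). The other DE members were the small heat shock proteins Hspb1 (0.77) and Hspb8 (0.64) and the J-domain proteins Dnajb4 (0.75) and Dnajb1 (0.68). Dnaja4, also a J-domain protein but not on the list, came next after the 12 largest rises and is named after its values were seen, with 4648, 5469.7 and 5278 with DkkMo and 3388, 2579 and 2381 with scrMo, 0.83 ± 0.103 (adjusted p = 1.28e-05). Rises that did not reach 1.5-fold included the cytosolic chaperones Hsp90aa1 (0.54), Hsp90ab1 (0.49) and Hspa8 (0.30), their co-chaperone Stip1 (0.37) and the mitochondrial chaperonins Hspd1 (0.53) and Hspe1 (0.53). With scrMo 1 left out, 21 genes of the list still passed and 12 were DE. With scrMo 2 or scrMo 3 left out, 17 passed and 6 and 7 were DE. Of all 16562 genes 1388, 1134 and 1126 rose without scrMo 1, scrMo 2 and scrMo 3.

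Of 22 chaperones and stress sensors of the endoplasmic reticulum 0 rose and 0 fell, with a median of 0.037 and values from -0.29 for Herpud1 to 0.20 for Xbp1. Their adjusted p values were 0.101 and 0.0546 (limma). Against NT Herpud1, of the degradation of misfolded proteins, had 0.71 with DkkMo and 1.01 with scrMo.

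In log phase the heat shock genes lay on the other side of 0, with a median of -0.14, and 20 of the 25 passed the interaction, all more positive under nutritional stress, beside 22.2% of all genes that passed it. The difference between the conditions was 1.91 for Hspa1b (limma, adjusted p = 0.00052), 1.63 for Cryab (adjusted p = 2.83e-06) and 1.47 for Hsph1 (adjusted p = 3.5e-05). In log phase itself 23.5% of all genes passed the test between DkkMo and scrMo, and the values of the same 3 genes there were -1.05 (adjusted p = 0.00304), -0.75 (adjusted p = 0.000153) and -0.68 (adjusted p = 0.00131).

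**Figure D3:**
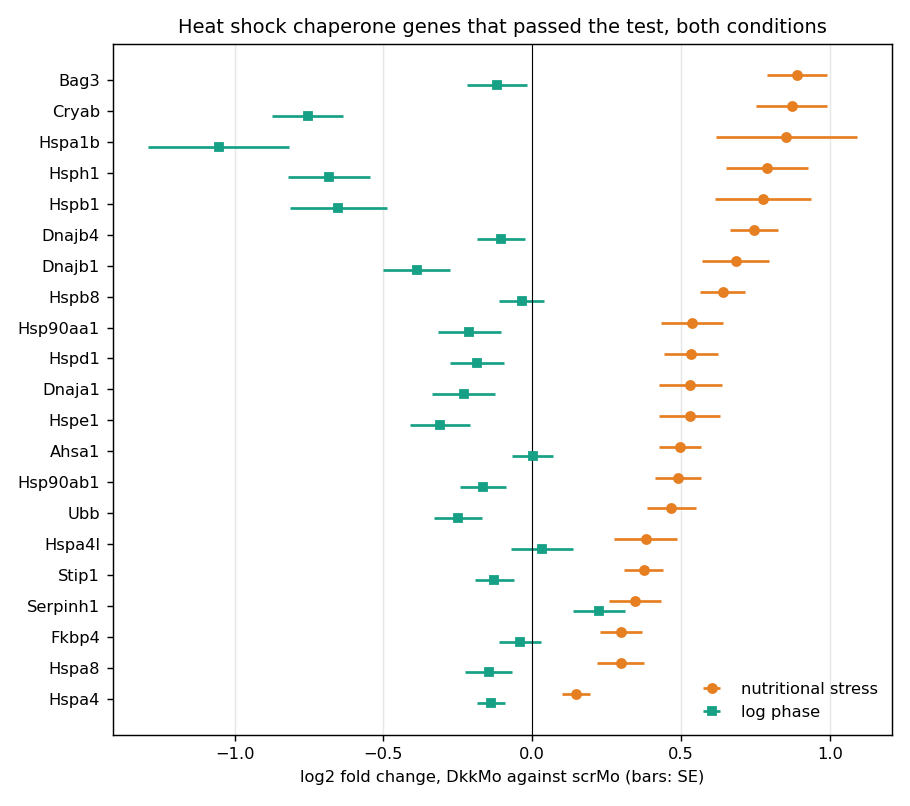
Log2 fold change, DkkMo against scrMo, of the 21 heat shock chaperone genes that passed the test, under nutritional stress (circles) and in log phase (squares), with bars of 1 SE. Under nutritional stress the values run from 0.15 for Hspa4 to 0.89 for Bag3, and in log phase most lie below 0.

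The promoters of these genes were searched for the heat shock element, taken as 3 GAA and TTC units in alternation spaced by 2 bases, on both strands in the 250 bases before the start site (RefSeq, GRCm38.p6). It was found in 2 of the 19 listed chaperone genes with a promoter sequence, beside 0.485% of the 10521 tested genes with one, and in 0 of the 7 DE members with one. The 2 genes, Hspd1 and Hspe1, share 1 promoter region in opposite orientation, shown here from the side of Hspe1 (chr1:55088044-55088091, plus strand) with the 4 units in capitals. A match is a description of the sequence, not a measured site. Elements with inexact or fewer units, or farther away, were not searched for, so a promoter without a match may still hold one.
Hspe1 and Hspd1: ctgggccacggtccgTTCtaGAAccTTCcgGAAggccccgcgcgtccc

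Among nuclear genes the largest rise was that of Parvg (chr15:84324026-84342978, plus strand), which encodes the focal adhesion protein gamma-parvin. It had 717, 771 and 703 with DkkMo, 201, 136 and 138 with scrMo and 491, 641 and 517 with NT, and rose by 1.34 ± 0.0729 (limma, adjusted p = 2.63e-10), with NT between the groups and nearer to DkkMo. Tmem132b (chr5:125531774-125792583), a membrane protein gene, had 289, 328 and 303 with DkkMo, 57.3, 43.1 and 34.99 with scrMo and 44.5, 50.8 and 54.1 with NT, a rise of 1.15 ± 0.0655 (adjusted p = 4.49e-10). Here scrMo overlapped NT and DkkMo alone was higher. Apc2 (chr10:80295977-80318263), a relative of the Wnt pathway scaffold APC, also stood out with DkkMo, with 275, 238 and 299 with DkkMo, 66.2, 47.7 and 57.3 with scrMo and 96.1, 69.5 and 93.9 with NT, and rose by 0.95 ± 0.0664 (adjusted p = 1.09e-08). For Smim41 the counts were 84.2, 82.7 and 108 with DkkMo, 3.82, 7.33 and 5.83 with scrMo and 13.1, 14.5 and 16.1 with NT, with 0.83 on the compressed scale and a ratio of mean counts of 16.2. In both genes DkkMo lay above NT and scrMo below it.

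Shmt1, the cytosolic serine hydroxymethyltransferase of folate metabolism, had 2504, 2916 and 2893 with DkkMo, 1390.2, 1234 and 1259.5 with scrMo and 1942, 1939 and 1940.2 with NT, so that the morpholino groups lay on either side of NT, and the rise was 0.96 ± 0.066 (limma, adjusted p = 9.27e-09). Agbl5, an enzyme that trims glutamate chains from tubulin, had 2153, 1967 and 1928 with DkkMo, 843, 977 and 904 with scrMo and 2385, 2465 and 2411 with NT, and the splicing factor gene Srsf11 had 11573, 12361 and 11950.5, 6678, 6382 and 6551 and 13400.4, 12729.6 and 12943 in the same order. In both scrMo lay far below NT and DkkMo just below it, with rises of 0.96 and 0.84. Mroh2a, also among the 12 largest rises, rose by 0.92 (adjusted p = 1.92e-08). Next in size, and named after their values were seen, were Taok3 (0.82), Qdpr (0.81), Swt1 (0.81), Ost4 (0.80) and Aqp1 (0.80), for a kinase, a pterin reductase, an RNA endonuclease, a subunit of the oligosaccharyltransferase and a water channel.

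The 12 largest falls were all mitochondrial, so the next largest were named after their values were seen. H1f2 (chr13:23738808-23740367), a linker histone gene, had 1498, 1304 and 1511 with DkkMo, 4153, 3702 and 4277 with scrMo and 1502, 1637 and 1455 with NT, and fell by 1.33 ± 0.1 (limma, adjusted p = 2.27e-08). Fam50a (chrX:74313033-74320149), for a nuclear protein, had 1016, 1038 and 1058 with DkkMo, 2841, 2593 and 2793 with scrMo and 3067, 3371 and 3134 with NT, and fell by 1.20 ± 0.0748 (adjusted p = 1.7e-09). Tfcp2 (chr15:100498012-100552008), for the transcription factor CP2, had 811, 834 and 834 with DkkMo, 2107, 2166 and 2041 with scrMo and 1762, 1801 and 1751 with NT, and fell by 1.12 ± 0.0422 (adjusted p = 6.83e-13). For Fam50a and Tfcp2, as for Malsu1, the DkkMo libraries were below NT and the scrMo means within 0.22 of it on the log2 scale. For H1f2 the DkkMo libraries overlapped NT and the scrMo libraries were above.

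Atl3, a GTPase that shapes tubules of the endoplasmic reticulum, had 3017, 3243 and 3158 with DkkMo, 6514, 7267 and 7378 with scrMo and 3813, 3286 and 3784 with NT, and fell by 1.10 ± 0.0919 (limma, adjusted p = 9.69e-08). Wnk4, a kinase that controls ion transport, and Csf1, the macrophage growth factor, were lowest in NT: Csf1 had 11413, 11539.8 and 11384 with DkkMo, 19166, 22859 and 22279 with scrMo and 7419, 6656 and 7660.4 with NT. Their falls were 0.89 and 0.88 (adjusted p = 1.09e-08 and 1.54e-07). The lysosomal enzyme gene Naglu had 613, 572 and 577 with DkkMo, 1253, 1377 and 1284 with scrMo and 977, 874 and 911 with NT, which lay between the groups, a difference of -0.89. Log2 fold changes were -0.92 for G6pc3, a glucose-6-phosphatase subunit, -0.99 for Dqx1, of the helicase family, and -0.92 for the zinc finger gene Zfp523. Further down were Krcc1 (-0.86), Dync2h1 (-0.85), Txnrd3 (-0.84), Fbxo32 (-0.81), Azin2 (-0.80) and Mill2 (-0.78), of which Dync2h1 is the heavy chain of the ciliary dynein and Fbxo32 the ubiquitin ligase subunit atrogin-1.

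**Figure D4:**
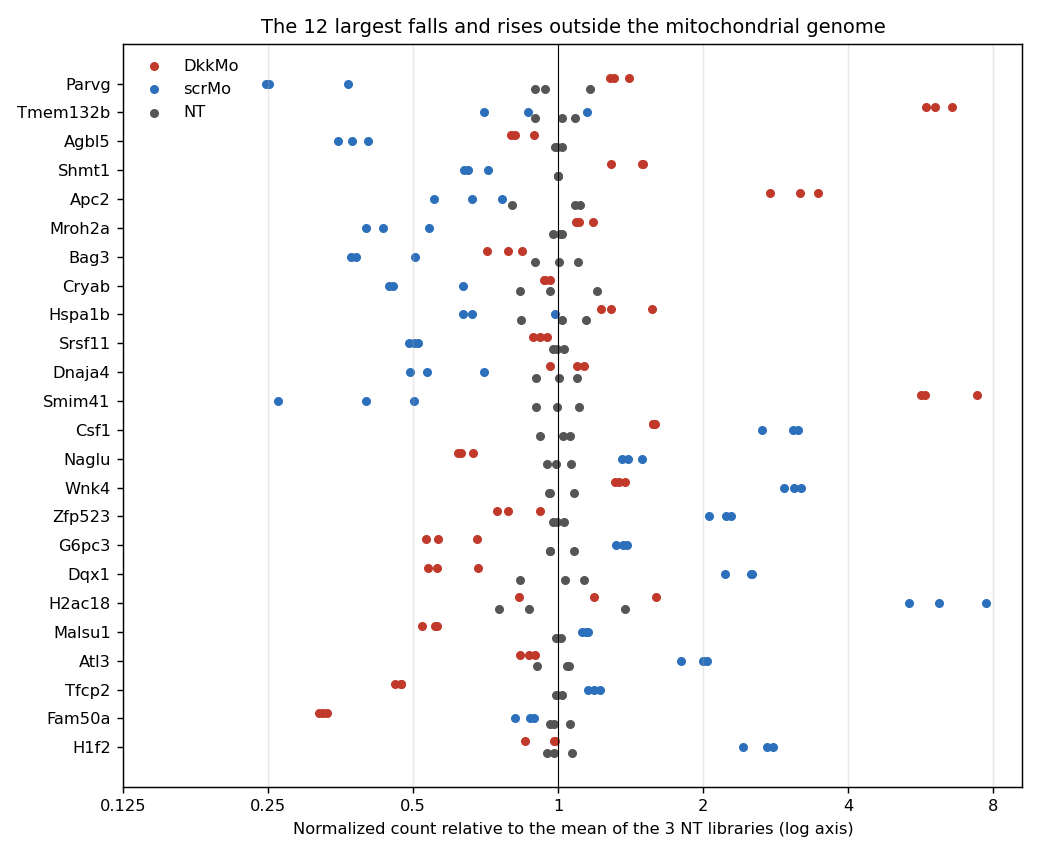
Normalized counts, divided by the mean of the 3 NT libraries (log axis), of the 12 largest falls and 12 largest rises outside the mitochondrial genome, one point a library. In Fam50a, Tfcp2, Malsu1, Tmem132b, Apc2 and Smim41 the DkkMo points are the farthest from 1, and in H1f2, Atl3, Agbl5 and Srsf11 the scrMo points are.

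Histone genes, a list drawn up after these values were seen, were lower with DkkMo where they passed: of 30 with values 0 rose and 14 fell, beside 9.97% and 10.9% of all genes, with a median of -0.15. Beside H1f2 the DE members were H2ac18 (-1.02), H2bc8 (-0.63) and H2ac6 (-0.59). H2ac18, a core histone H2A gene, had 36.5, 70.5 and 52.4 with DkkMo, 236, 342 and 273 with scrMo and 33.2, 38.4 and 60.7 with NT. Messages of many histone genes lack a poly(A) tail, as mitochondrial tRNAs do, and the libraries were made with oligo(dT) beads. How far such RNA was captured in each library was not tested, and family members with near-identical sequence may share reads.

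**Figure D5:**
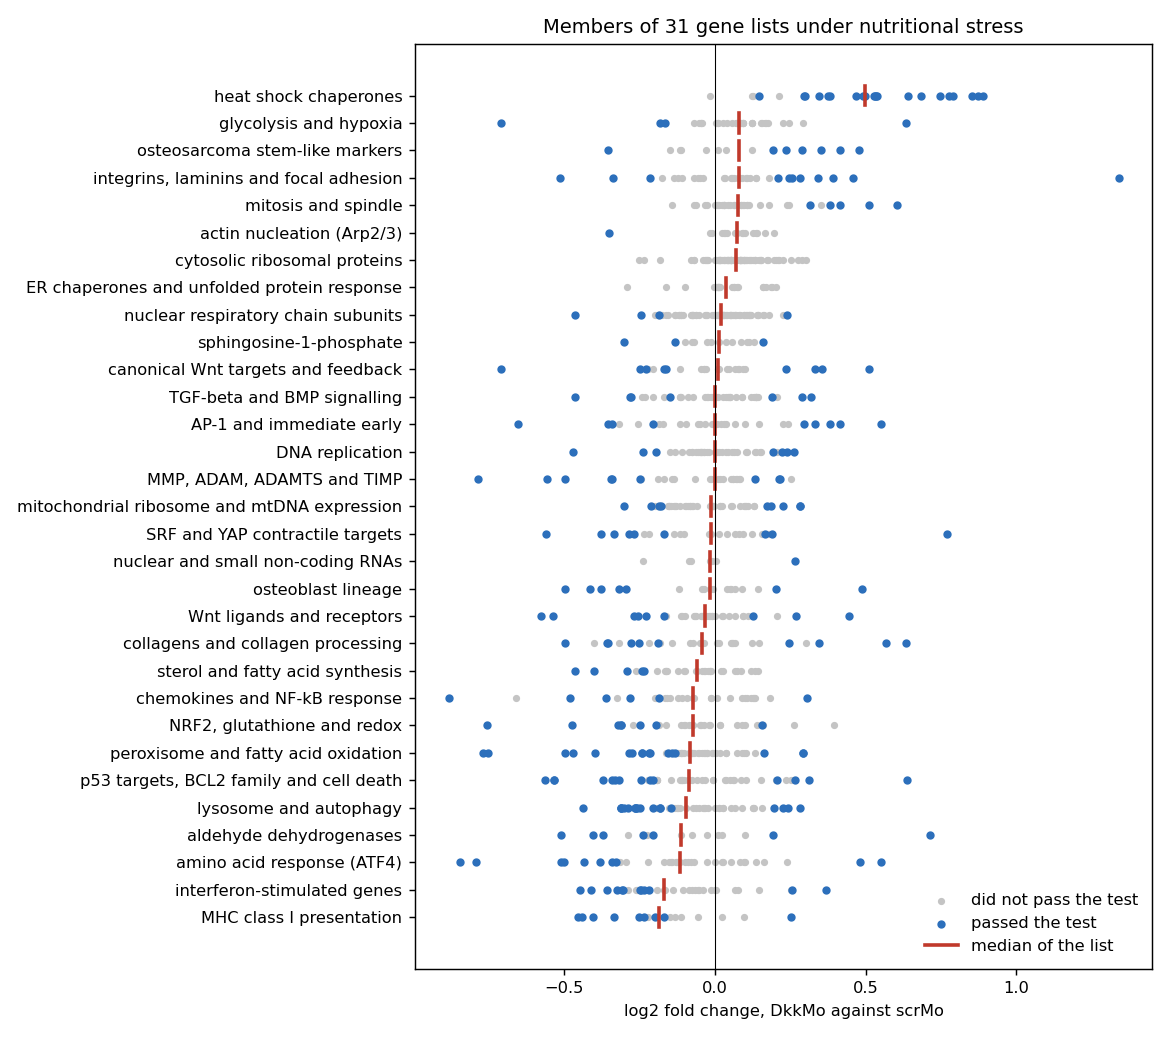
Log2 fold change, DkkMo against scrMo, of the members of 31 gene lists, ordered by the median of the list (bar). The heat shock chaperones, with a median of 0.50, stand apart, and the other medians lie between -0.18 and 0.080.

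Across the other lists the counts were smaller, and they are read beside the 9.97% of all genes that rose and the 10.9% that fell. Of 35 genes of the amino acid response, which ATF4 controls, 2 rose and 8 fell, with a median of -0.12. In the model of the 6 libraries alone 4 rose and 17 fell, where 2712 and 2936 of all 16562 genes did. Cth, for the cystathionine gamma-lyase that makes cysteine, had 382, 449 and 326 with DkkMo, 917, 837 and 898 with scrMo and 742, 684 and 775 with NT, and fell by 0.85 ± 0.0962 (limma, adjusted p = 4.64e-06). Ddit3, for the stress factor CHOP, had 11804, 10838 and 11100.5 with DkkMo, 20196, 19475 and 19378 with scrMo and 8420.4, 9741 and 9241 with NT, and fell by 0.79 ± 0.126 (adjusted p = 0.000157). In Cth the scrMo libraries were nearer NT, in Ddit3 the DkkMo libraries. The members that rose were Atf3 (0.55) and Slc7a11 (0.48). The ATF4 element TTGCATCA, searched on both strands in the same window, was found in 5 of 29 promoters of the list beside 0.694% of all.

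Of 33 genes of the NRF2, glutathione and redox list 1 rose and 7 fell, with a median of -0.073. Nqo1, a quinone reductase and standard NRF2 target, had 1575, 1639 and 1505 with DkkMo, 2643, 2945 and 2955 with scrMo and 1218, 1069 and 1019 with NT, and fell by 0.76 ± 0.0974 (limma, adjusted p = 1.98e-05). Next by p was the growth inhibitor gene Osgin1 (-0.48). The antioxidant element TGACNNNGC, searched likewise, was found in 7 of 28 promoters of the list beside 13.8% of all. Of 34 glycolysis and hypoxia genes, 1 rose and 3 fell. Vegfa, the angiogenic growth factor, had 27554, 27484 and 29041 with DkkMo, 43407, 46324 and 48405 with scrMo and 24109.9, 21292 and 23966 with NT, and fell by 0.71 ± 0.0659 (adjusted p = 3.68e-07). P4ha1, a collagen prolyl hydroxylase and hypoxia target, went the other way, with 7025, 7051 and 6909, 4913, 4112 and 4221 and 6784, 6699 and 6674 in the same order, and rose by 0.63 ± 0.139 (adjusted p = 0.00272).

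Of 43 p53 targets, BCL2 family and cell death genes 4 rose and 10 fell, with a median of -0.087. Cflar, the inhibitor of caspase-8 activation, had 7707, 8314 and 8211 with DkkMo, 5249, 5078 and 4948 with scrMo and 7386, 7596 and 7522 with NT, and rose by 0.64 ± 0.0943 (limma, adjusted p = 8.3e-05). Among those that fell were the p53 targets Ccng1 (-0.53), Trp53inp1 (-0.53) and Cdkn1a (-0.37) and the BH3-only gene Bmf (-0.57), none of them DE. Of 29 AP-1 and immediate early genes 5 rose and 4 fell, with Klf2 (-0.65) DE and Ier5 (0.41) next by p. The chemokine and NF-kB list had 1 rise, Nfkb1 (0.30), and 5 falls of 31 genes, of which Csf1 was DE.

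Peroxisome and fatty acid oxidation genes had 3 rises and 14 falls of 49, with a median of -0.083. Hsd17b4, the multifunctional enzyme of peroxisomal beta-oxidation, had 589, 580.1 and 583 with DkkMo, 1079.5, 1194 and 1208 with scrMo and 1177, 1105 and 1133 with NT, with scrMo overlapping NT and DkkMo far below both. The fall was 0.75 ± 0.0533 (limma, adjusted p = 1.09e-08). Acaa1a, the peroxisomal thiolase, had 1043, 928 and 955 with DkkMo, 1794, 1937 and 1816 with scrMo and 1335, 1229.8 and 1186 with NT, and fell by 0.77 ± 0.0655 (limma, adjusted p = 1.15e-07). Among the 12 falls that were not DE were Pex7 (-0.50), Acox3 (-0.47) and Pex2 (-0.40). Lysosome and autophagy genes had 4 rises and 15 falls of 47 and no DE member, with a median of -0.096, the smallest p being that of the channel gene Mcoln1 (-0.44). Without DkkMo 3 the lysosomal falls numbered 10, while falls over all 16562 genes went from 1812 to 1348. Of 31 sterol and fatty acid synthesis genes 0 rose and 5 fell, among them Insig1 (-0.47) and Acss2 (-0.29).

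Aldehyde dehydrogenase genes had 2 rises and 5 falls of 15. Aldh7a1, which degrades lysine derivatives, had 739, 669.9 and 603 with DkkMo, 311, 315 and 325 with scrMo and 655, 664 and 677 with NT, and rose by 0.71 ± 0.0576 (limma, adjusted p = 6.06e-08). Aldh1a1, which the study examined, had only 4.06, 6.13 and 2.33 with DkkMo, 39.5, 16.5 and 26.2 with scrMo and 18.3, 19.7 and 18.0 with NT. Its log2 fold change on the compressed scale was -0.37 ± 0.0574 (adjusted p = 0.00013), and the ratio of mean counts was 6.57, with scrMo higher. The other falls were Aldh18a1 (-0.51), Aldh3a1 (-0.40), Aldh2 (-0.24) and Aldh3a2 (-0.21).

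Interferon-stimulated genes had 2 rises and 10 falls of 37 and MHC class I genes 1 rise and 8 falls of 16, with medians of -0.17 and -0.18 and no DE member in either. For the interferon list 5 genes fell without DkkMo 2 and 6 without scrMo 1 or scrMo 2, while 20 fell in the model of the 6 libraries alone. Of all 16562 genes 1812 fell in the main fit, and 1283, 1575, 1220 and 2936 in these, in the same order. The falls included the regulator Irf7 (-0.41), Ifi44 (-0.45) and the antigen-presenting H2-K1 (-0.45), H2-Q4 (-0.44) and H2-D1 (-0.41), members of a family of near-identical genes that may share reads. Mx2, of the antiviral GTPase family and annotated as a polymorphic pseudogene, rose by 0.37. Against NT the interferon list was 0.31 for DkkMo and 0.44 for scrMo, which share the NT libraries.

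Of 34 genes for mitosis and the spindle 5 rose and 0 fell, and of 39 for DNA replication 4 rose and 3 fell, with medians of 0.075 and 0.00042. Espl1, for separase, the protease that splits cohesin, had 354, 363 and 359 with DkkMo, 171, 168 and 158 with scrMo and 96.1, 136 and 126 with NT, and rose by 0.60 ± 0.0989 (limma, adjusted p = 0.000216). The other mitotic rises were Birc5 (0.51), Plk1 (0.42), Foxm1 (0.38) and Ube2c (0.31). In replication, Mcm7 (-0.47), a helicase subunit, fell and Gins2 (0.24), of its activator complex, rose.

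Canonical Wnt targets and feedback genes, the pathway that Dkk-1 antagonises, had values for 26 of 40, of which 4 rose and 5 fell, with a median of 0.010. The rises were Birc5 (0.51), Ccn4 (0.36), Jun (0.33) and Cd44 (0.24). The falls were Vegfa, given above and the only DE member, and Dkk2 (-0.25), Ccnd1 (-0.23), Fzd7 (-0.17) and Lef1 (-0.16). Ccn4, a secreted Wnt target, had 1204, 1216 and 1158 with DkkMo, 797, 879.8 and 954 with scrMo and 755, 669.9 and 764 with NT. Of 34 Wnt ligands, receptors and transducers 3 rose and 6 fell, led by the ligand Wnt10b (-0.58) and the transducer Dvl2 (-0.54). Their groups did not overlap in 15 of the 26 Wnt targets, beside 44.9% of all genes.

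Of 19 osteoblast lineage genes 2 rose, Phex (0.49) and Bglap (0.20), and 5 fell. Phex, of phosphate control, had 122, 146 and 155 with DkkMo and 50.9, 55.9 and 59.3 with scrMo with no overlap, while Col1a2 (-0.50), Spp1 (-0.41), Msx2 (-0.38), Sparc (-0.32) and Phospho1 (-0.30) fell. Collagen genes had 4 rises and 6 falls of 30, with Col8a1 (0.57) and Bmp1 (-0.28) beside P4ha1. Integrins, laminins and focal adhesion genes had 8 rises, led by Parvg, and 3 falls, led by Zyx (-0.52), of 34. Of the metalloproteinase list 3 of 28 rose and 6 fell, and Mmp11, stromelysin-3, was DE, with 1724, 1645 and 1781 with DkkMo, 2966, 3330.4 and 3202 with scrMo and 1814, 1662 and 1732 with NT, a fall of 0.79 ± 0.0643 (limma, adjusted p = 7.09e-08), followed by Mmp24 (-0.56). SRF and YAP targets had 3 rises and 6 falls of 25. Among these Flna (-0.56), for the actin crosslinker filamin A, fell.

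TGF-beta and BMP genes had 3 rises and 4 falls of 42, with Fstl1 (-0.46) the smallest p beside Bmp1. Cytosolic ribosomal protein genes had 0 of 72 past the test, with a median of 0.069 and values such as Rps19 (0.29) (limma, adjusted p = 0.0569) and Rpl39 (-0.23) (adjusted p = 0.0755). Of 7 non-coding RNAs 1 rose, Kcnq1ot1 (0.27), and Snhg6 had -0.24 (adjusted p = 0.0547).

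Further genes that the study discusses were read as well. S1pr2, a sphingosine-1-phosphate receptor, had 1083, 1071 and 1126 with DkkMo, 1450.0, 1349 and 1427 with scrMo and 1676, 1712 and 1593 with NT, and fell by 0.30 ± 0.0524 (limma, adjusted p = 0.000394). Of its list of 15, 1 rose, Acer3 (0.16), and 2 fell. Sox2, a stem cell transcription factor, had 1998, 1911 and 2352 with DkkMo, 1689, 1639 and 1624 with scrMo and 3625, 3473 and 3483 with NT, and rose by 0.29 ± 0.0828 (adjusted p = 0.017), with both groups below NT. Of the 14 stem-like markers with values 6 rose, among them the efflux pump gene Abcb1a (0.48) and Eng (0.41), and 1 fell. Arpc2, a subunit of the actin-nucleating Arp2/3 complex, had 0.13 (95% confidence interval 0.017 to 0.23, adjusted p = 0.0932) and did not pass. In its list of 17, 0 rose and 1 fell, Wasf1 (-0.35), and Nckap1 had 0.16 (adjusted p = 0.0827). Mouse Dkk1 and the human Dkk-1 insert, the target of DkkMo, were not analysed here, so the knockdown was not checked at the RNA level.

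The test of the difference between culture conditions called 613 genes DE, 3.7% of all, 144 more positive under nutritional stress and 469 more negative, or 23.5% positive, and 46.9% positive with each library centred on its median. The most positive were Hspa1b, Cryab, Hsph1, Hspb1 (1.43) and Parvg (1.36), of which Parvg had -0.017 in log phase (limma, adjusted p = 0.903). The most negative were mt-Tp (-3.58), mt-Rnr1 (-2.57), mt-Tt (-2.55), Txnip (-2.51) and Cxcl5 (-2.41). For Txnip, a regulator of glucose uptake, and the chemokine gene Cxcl5 the values in log phase were 2.78 (limma, adjusted p = 1.88e-06) and 2.08 (adjusted p = 3.35e-08). Under nutritional stress Txnip had 0.26 (adjusted p = 0.556) and Cxcl5 -0.33 (adjusted p = 0.0957), with counts for Cxcl5 of 15.2, 7.15 and 4.66 with DkkMo and 54.7, 26.6 and 20.4 with scrMo.

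Markers of the lineage and of other cells were read as a check of the label. Of 8 osteoblast markers 5 had values, among them Runx2, Alpl and Col1a1, with sums of normalized counts of 55504 to 56871 with DkkMo, 71594 to 75528 with scrMo and 69302 to 75637 with NT, most of it Spp1. Sp7, Ibsp and Dlx5, markers of committed osteoblasts, had no values here. Sox9 and Col2a1 stood for 5 chondrocyte markers. Counts were low for Alpl, at 10.2 to 21.3 with DkkMo and 10.7 to 16.5 with scrMo. Those of Col2a1 were 12.3 to 26.8 with DkkMo and 12.7 to 15.6 with scrMo. Of 4 T cell markers none had values, and of the endothelial, erythroid and skeletal muscle markers 1 of 4 each had. Macrophage markers had values for 5 of 6, with sums of 2442 to 2499.9 with DkkMo and 2332 to 2445 with scrMo, most of it Cd68. Of these Ptprc, the leukocyte marker CD45, passed the test (0.18) at low counts. They were 20.3, 13.3 and 11.6 with DkkMo, 5.09, 6.42 and 4.86 with scrMo and 6.99, 1.04 and 6.64 with NT. Of 5 adipocyte markers 2 had values, and Fabp4 fell by 0.31. Their part in the results above was not tested.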

How the data were processed

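RNA of 18 MOSJ-Dkk1 cultures was selected with oligo(dT) beads, and the study had it sequenced by BGI Genomics. Per the labels and methods, reads were aligned to GRCm38 with HISAT2 2.1.0, sorted with SAMtools 1.9 and counted per gene with featureCounts (Subread 2.0.0), and StringTie is also named. The authors deposited 1 table of variance-stabilised log2 values made with DESeq2, which compress differences of low counts. Whether counting used strand is not stated in the sources used here. Of 16576 genes listed, the last 14 were left out, since their values spread within groups as no other row did, and the remaining 16562 were tested. The filter, above the lowest value in at least 3 libraries, removed 0 genes. Reversing the transformation gave counts that were whole within 0.001, from which normalized counts and read shares were computed.

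Groups were compared with limma 3.58.1 in R 4.3.3 (empirical Bayes with a trend, 1 mean for each of 6 groups, Benjamini-Hochberg over all genes). Genes that passed had adjusted p below 0.05, and DE genes also differed by over 1.5-fold. Scripts were tested on simulated data. Promoter and transcript sequences came from RefSeq (GRCm38.p6) and GENCODE M21 (GRCm38), and pseudogenes were matched with blastn 2.17.0. Promoters were found for 10521 tested genes. Read shares were compared with a two-sided exact permutation test.

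Genes named are the 12 largest rises and falls among DE genes, the 5 largest interactions each way and all mitochondrial genes. Up to 4 DE members of each list, or else those with the smallest p, and genes the study discusses were named too. Predicted genes and pseudogenes, judged by symbol, were left out of the largest rises, falls and interactions. The members and lists were chosen with earlier results of these data known. Other list members that passed, further DE genes outside the mitochondrial genome, the matched pseudogenes and the histone list were named after their values were seen. Alternatives were other scalings, scales, filters, thresholds and models, and leaving out each library. The table of 16 tumours was not used here, and some genes are not reported here.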

Additional observations from a re-analysis of the deposited data

Results flagged for a closer look

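The difference between DkkMo and scrMo itself differed between nutritional stress and log phase for the genes below, by the test of that difference (limma interaction, adjusted over all genes). Values are the difference under nutritional stress minus that in log phase, on the log2 scale.

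Among heat shock chaperones it was 1.91 for Hspa1b, 1.63 for Cryab, 1.47 for Hsph1, 1.43 for Hspb1, 1.07 for Dnajb1, 1.01 for Bag3, 0.85 for Dnajb4 and 0.68 for Hspb8, all with higher values for DkkMo under nutritional stress. In log phase these genes ran from -1.05 for Hspa1b to -0.036 for Hspb8. For the focal adhesion gene Parvg it was 1.36, with -0.017 in log phase.

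It was -3.58 for mt-Tp, -2.57 for mt-Rnr1 and -2.55 for mt-Tt, which had -0.25 (limma, adjusted p = 0.0622), -1.10 (adjusted p = 9.6e-07) and -0.82 (adjusted p = 6.5e-07) in log phase, where mt-Tp did not pass. It was -2.51 for Txnip and -2.41 for Cxcl5, with 2.78 and 2.08 in log phase. The cause of these differences was not tested.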

How the results depend on the processing

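Between DkkMo and scrMo there were 166 DE genes, a count that was 918 with limma voom on recovered reads and 891 on log2 of the normalized count plus 1, scales that do not compress low counts. It was 107 with genes above the median gene alone, 29 at 2-fold and 3464 with no fold threshold. Leaving out 1 library gave 147 (without scrMo 2) to 194 (without scrMo 1). In the same order the interaction, 613, became 1501, 1553, 394, 124 and 3673, with 463 (without log phase DkkMo 2) to 736 without 1 library. DkkMo against NT, 441, became 2305, 2317, 49 and 6907 (316 above the median gene), with 404 to 468. For scrMo against NT, 734 became 2946, 2923, 108 and 7743 (525 above the median gene), with 682 to 806.

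The share of DE genes that was higher moved from 42.2% to 70.9% with voom, 71.5% on the log2 scale, 57.0% with quantile normalization and 28.2% above the median gene for DkkMo against NT, and from 42.8% to 62.9%, 63.6%, 52.9% and 31.6% for scrMo, which had 31.7% with each library centred on its median. For the interaction, 23.5% became 46.9% with centring, and 33.6% and 33.2% with voom and log2.

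A replicate block by title number, in a model of the 6 libraries compared, gave 168 DE genes, as did that model with no block, and 613 for the interaction. Same-numbered libraries correlated at -0.059 to 0.0052 in their deviations under nutritional stress. In log phase, which enters the interaction, they correlated at -0.049 to 0.62 (mean 0.38, against -0.18 for differently numbered libraries). Not every pair exceeded 0.1 in either condition, so the numbers were not taken to pair them. For log phase this does not settle the matter, since the libraries numbered 1 and 3 there correlated at 0.62 and 0.57. Of 146 named genes, each kept its direction under each alternative that gave it a value. Of 2302 such values 2250 were on the same side of the threshold, 22 no longer passed, all with 1 library left out, and 30 newly passed. List medians between -0.032 and 0.012 changed sign under some alternatives, and those of the heat shock list and the mitochondrial genome under none. Few libraries and the compressed scale limit what low counts can show.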
